A study of Homo sapiens with 22 samples.

Results

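The regions described are the bodies of the 200 longest protein-coding genes on chromosomes 1 to 22, from one annotated end of the gene to the other. They were taken by span (end minus start) from the RefSeq table of GRCh38.p14, which holds 19126 protein-coding genes on these chromosomes. The rule uses span and no measured value. Chromatin immunoprecipitation sequencing (ChIP-seq) peaks in them were compared with peaks elsewhere in hTERT RPE-1, a human line of retinal pigment epithelium kept dividing by telomerase. The data were 12 peak lists, each from 1 library: CTCF and WAPL in wild-type cells, HA in clone A2, STAG1, STAG2 and PDS5A in clone D7, and RAD21 in both clones after 24 h in DMSO (the solvent control), 4 h in dTAGV-1 or 24 h in dTAGV-1.

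Both clones carry a degron on NIPBL, the tagged protein that dTAGV-1 is meant to deplete. The genotype is given as mCherry-P2A-FKBP12(F36V)-NIPBL for clone A2 and mGreenLantern-P2A-FKBP12(F36V)-NIPBL for clone D7, so the DMSO controls carry the tag as well; the clones are called A2 and D7. Each is a single clone of one line, cells were cycling and unsynchronised, and the clones were never treated as replicates. RAD21 and PDS5A chromatin held a mouse NIH/3T3 spike-in of about 10%, and the other lists held none. The labels give no treatment for CTCF, WAPL, STAG1, STAG2 or HA, and PDS5A was taken after 24 h in DMSO. HA chromatin was fixed with DSG before formaldehyde and the rest with formaldehyde alone, and the CTCF library was made with another kit and size-selected. The labels do not say which protein carries the HA epitope; the peak names read HA-NIPBL. No NIPBL level was measured in these files, so the degradation itself could not be checked, and peak lists hold no marker expression for the cell type. With 1 library in each group no p-value was computed. All intervals are 95% intervals that cover counting error only.

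Cohesin is a ring-shaped complex that holds and extrudes DNA. RAD21 is the subunit that closes the ring, and STAG1 and STAG2 are alternative accessory subunits. NIPBL loads cohesin and drives its extrusion, PDS5A and WAPL take part in stopping and releasing it, and CTCF is the DNA-binding protein at which extruding cohesin is halted. Very long genes code mostly for adhesion, synaptic and signalling proteins, many replicate late, and several coincide with common fragile sites. RNA polymerase takes hours to cross them.

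Promoters of the members that kept a RAD21 peak through dTAGV-1 and promoters that lost it can be set side by side, so 4 are shown before the values. Each is a RefSeq promoter of GRCh38.p14, 250 bases before the start of transcription and 50 after it, printed 5′ to 3′ with CG dinucleotides in capitals. NTM codes for a cell adhesion molecule and lies on the plus strand at chr11:131911086-131911385. ZBTB20 codes for a zinc-finger transcription repressor and lies on the minus strand at chr3:114383593-114383892. Among the member promoters considered for display, these had the highest clone D7 DMSO fold with a RAD21 peak in all 4 dTAGV-1 lists. SCHIP1 (schwannomin-interacting protein, plus strand, chr3:159762880-159763179) and RARB (a retinoic acid receptor, plus strand, chr3:25428013-25428312) had the highest fold among those with a peak in none of the 4.
NTM promoter: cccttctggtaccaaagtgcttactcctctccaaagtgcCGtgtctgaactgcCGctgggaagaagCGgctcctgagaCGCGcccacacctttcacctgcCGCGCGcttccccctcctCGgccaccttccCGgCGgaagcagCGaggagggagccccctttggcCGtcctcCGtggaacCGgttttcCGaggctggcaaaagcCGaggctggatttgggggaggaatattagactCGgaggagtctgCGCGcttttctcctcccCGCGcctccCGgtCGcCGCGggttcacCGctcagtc
ZBTB20 promoter: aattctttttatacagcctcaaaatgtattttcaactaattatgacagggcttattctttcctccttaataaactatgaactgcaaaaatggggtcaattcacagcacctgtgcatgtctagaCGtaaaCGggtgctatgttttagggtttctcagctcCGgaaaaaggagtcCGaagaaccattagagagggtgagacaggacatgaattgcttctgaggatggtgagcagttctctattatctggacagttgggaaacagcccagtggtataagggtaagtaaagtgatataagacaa
SCHIP1 promoter: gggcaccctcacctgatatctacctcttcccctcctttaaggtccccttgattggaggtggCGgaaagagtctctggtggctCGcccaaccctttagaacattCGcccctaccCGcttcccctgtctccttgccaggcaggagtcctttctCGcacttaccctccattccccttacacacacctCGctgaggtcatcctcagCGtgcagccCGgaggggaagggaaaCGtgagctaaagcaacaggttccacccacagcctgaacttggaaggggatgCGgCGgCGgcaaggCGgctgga
RARB promoter: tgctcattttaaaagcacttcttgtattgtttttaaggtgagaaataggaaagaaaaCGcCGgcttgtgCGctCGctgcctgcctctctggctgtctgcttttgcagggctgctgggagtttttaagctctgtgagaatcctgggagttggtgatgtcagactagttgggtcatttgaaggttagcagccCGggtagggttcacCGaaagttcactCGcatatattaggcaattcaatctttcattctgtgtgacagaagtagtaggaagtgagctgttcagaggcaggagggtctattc
The NTM window held 27 CG dinucleotides, the ZBTB20 window 4, the SCHIP1 window 13 and the RARB window 7.

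At the NTM promoter the RAD21 fold enrichment (summit over local background, as the authors deposited it) in clone A2 was 81.3 before dTAGV-1, then 22.99 after 4 h and 61.3 after 24 h. In clone D7 it was 90.6, 67.7 and 67.6. CTCF lay there with a fold of 113. At the ZBTB20 promoter the RAD21 folds were 78.0, 22.3 and 31.2 in A2 and 79.0, 47.4 and 48.7 in D7, and the CTCF fold was 89.9. The SCHIP1 and RARB promoters had no CTCF peak. Their RAD21 peaks in DMSO were weak and broad. At SCHIP1 the fold was 6.06 in A2 and 9.33 in D7, in a clone D7 peak 4790 bp wide. The summit of that peak lay at position 3924 from the first printed base, so its fold belongs to a point downstream of the window. At RARB it was 4.76 and 8.27, in a clone D7 peak 2436 bp wide. So the shown promoters that kept RAD21 were overlapped by strong peaks with CTCF, and those that lost it by weak peaks without CTCF. Both pairs were picked for high fold, so the strength of the kept pair follows in part from that choice. Among the members 19 promoters in 14 genes had a clone D7 DMSO peak and all 4 dTAGV-1 lists, and 13 in 12 genes had none of the 4. The shown promoters do not stand for these sets. A CTCF core motif written as CCA, any 2 bases, AG, any 2 bases and GGC was searched on both strands. None of the 4 windows held it. It was found in 2 of 401 promoters of members (0.499%), in 2.55% of the 21156 promoters of protein-coding genes on chromosomes 1 to 22 and in 2.41% of all 35116 promoters in the table. A match is only a description of the letters, and in the 4 shown promoters the clone D7 RAD21 summit lay outside the printed window.

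Several libraries stand apart in these regions, and this bears on every comparison between lists below. Background pileup, a measure of depth recovered from fold and −log10 p, ranged from 1.77 (STAG1) to 4.05 (clone D7 at 4 h) in 10 lists and was 13.4 in CTCF; it could not be recovered for HA. The median local background at peaks inside the bodies, divided by that in the rest, ran 0.949, 0.673 and 0.571 over DMSO, 4 h and 24 h in clone A2. In clone D7 the series was 0.774, 0.985 and 0.997. STAG1 had 0.563, STAG2 0.787 and PDS5A 0.833. The local background at peaks in the bodies relative to the rest thus differed between libraries, and across the conditions it fell in A2 and rose in D7. The part of this in the results was not tested, and with 1 library per group no result can be given without the library concerned.

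The 200 genes spanned 607.4 kb to 2474 kb, with a median of 855.9 kb. Their union covered 194.1 Mb in 199 separate stretches, which is 6.76% of the 2872 Mb spanned on chromosomes 1 to 22. They lay on 21 of the 22 chromosomes, with 26 on chromosome 3, 17 on chromosome 10 and none on chromosome 19. IQCJ-SCHIP1 and SCHIP1 share sequence, so their peaks count once in totals and under both names in values per gene. A strand was known for 166 members (91 plus, 75 minus), and the other 34 were placed from their lower coordinate. At the edge of the rule, FOXP2 (rank 200, 607438 bp) held 9 CTCF peaks and 7 and 5 DMSO RAD21 peaks in clones A2 and D7. PRELID2 (rank 201, 606357 bp) held 12, 8 and 8. Spans follow the table, in which 156 of the 200 genes have predicted transcripts, so some bodies are longer than the commonly used gene model.

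Cohesin and CTCF peaks were sparser in the long bodies than elsewhere. A peak was counted inside when its summit lay in a body. CTCF had 2453 peaks inside, or 12.6 per Mb, against 20.5 per Mb in the rest of chromosomes 1 to 22, a ratio of 0.617 (0.592 to 0.643). RAD21 in DMSO had 1559 peaks in clone A2 (8.03 per Mb, ratio 0.580, 0.551 to 0.610) and 1294 in clone D7 (6.67 per Mb, ratio 0.506, 0.478 to 0.535). The ratio lay below 1 for all 12 lists, although for HA, with 9 peaks inside, the interval of 0.278 to 1.20 held 1.

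The lists were not thinned equally. PDS5A had the lowest ratio, 0.344 (0.318 to 0.371), with 683 peaks inside. WAPL (77 peaks) had 0.414 and STAG1 (810 peaks) 0.440. STAG2 had 1007 peaks and a ratio of 0.665 (0.623 to 0.708), so its interval did not overlap those of STAG1 and PDS5A. In dTAGV-1 the RAD21 ratio was 0.664 at 4 h (1146 peaks) and 0.586 at 24 h (1130 peaks) in clone A2, and 0.473 (1261 peaks) and 0.582 (1185 peaks) in clone D7. Against the bodies of the other protein-coding genes, which are richer in peaks, the ratio was 0.460 for clone A2 in DMSO and 0.399 for clone D7.

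**Figure D1:**
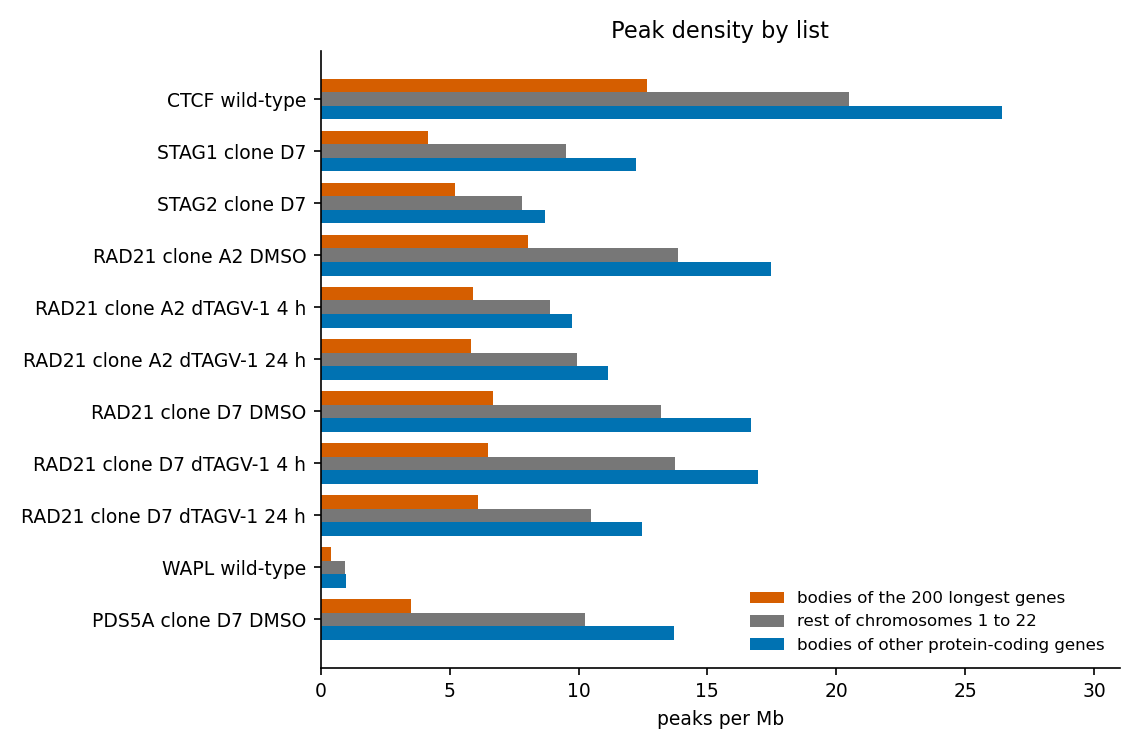
Peaks per Mb in the bodies of the 200 longest genes (orange), in the rest of chromosomes 1 to 22 (grey) and in the bodies of other protein-coding genes (blue), for 11 lists (HA, with 9 peaks inside, is left out). The orange bar is the shortest of the 3 in each list: 12.6 against 20.5 per Mb (rest) for CTCF, and 3.52 against 10.2 for PDS5A.

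Among the members, density fell with length. In the 50 longest bodies (1126 to 2474 kb) clone A2 in DMSO had 5.34 RAD21 peaks per Mb and clone D7 3.84, and in the 50 shortest (607.4 to 721.9 kb) 11.2 and 9.68. The number of clone D7 DMSO peaks in a body bore almost no relation to its span (Pearson r = -0.104, Spearman correlation -0.0717, across 200 genes). It followed the number of CTCF peaks (r = 0.823, Spearman correlation 0.854), and counts in the 2 clones went together (r = 0.927). These correlations run across genes of the same libraries, share the span of each body, and are given as descriptions.

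The 5 longest genes held few peaks for their length. RBFOX1 (chr16:5239721-7713340), a splicing regulator, had 10 CTCF peaks and 1 DMSO RAD21 peak in each clone. CNTNAP2 (chr7:146116801-148420998), a neurexin-like adhesion protein, had 6 CTCF peaks and 2 RAD21 peaks in each clone, with one stretch of 2146 kb free of DMSO RAD21 peaks in both. PTPRD, a receptor tyrosine phosphatase, had 4 DMSO RAD21 peaks in A2 and 3 in D7. DLG2, a synaptic scaffold, had 10 and 5. CSMD1, a CUB and sushi domain membrane protein, had 3 CTCF peaks and no DMSO RAD21 peak.

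In all, 17 members had no DMSO RAD21 peak in either clone and 12 had none in any of the 6 RAD21 lists. The 5 with the fewest per Mb (the longest of these 17) were CSMD1, PCDH15 (a protocadherin of hair cells), ROBO2 (a receptor for Slit guidance cues), DPP10 (a potassium channel subunit) and LINGO2 (a neuronal membrane protein). They still held 3, 3, 6, 1 and 2 CTCF peaks. Picked after their values were seen, SGCD, CNTN4, GRM7 and LRRTM4 were the 4 members with no CTCF peak, and of these CNTN4 alone had a DMSO RAD21 peak, 1 in clone A2.

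At the other end, KCNMA1 (chr10:76869602-77637808), the BK potassium channel, had 28 DMSO RAD21 peaks in A2 and 25 in D7, or 69.0 per Mb summed over the clones, against a median of 14.7 over the members. FRMD4A, a FERM-domain scaffold, had 19 in each clone. IQCJ-SCHIP1, a readthrough locus, had 23 and 21, and THSD4, a microfibril protein, 17 and 18. These genes differed in make-up. In KCNMA1 10 and 8 of the peaks were free of CTCF, in FRMD4A 7 and 9, and in THSD4 2 and 3.

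By function, using lists that may overlap and that leave 45 members in none, RAD21 was densest in 30 genes of cytoskeleton, scaffold and transport (10.7 peaks per Mb in clone A2 in DMSO, 9.07 in clone D7) and 21 of transcription and RNA regulation (10.6 and 9.90). Pooled over each list it was sparsest in 46 adhesion and synapse genes (5.63 and 4.58). By the median over genes of peaks per Mb summed over the clones, the channels and receptors were lower (9.54) than the adhesion and synapse genes (10.2). Pooled values between these were those of 35 signalling and guidance genes (8.00 and 6.10), 16 channels and receptors (7.58 and 6.31) and 30 genes at common fragile sites (6.50 and 5.08). Over all 200 members the values were 8.07 and 6.69. CTCF density ran from 9.62 per Mb in the adhesion and synapse genes to 16.8 in the cytoskeleton list.

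Along the bodies, peaks were most frequent towards the 3′ end and sparse in bins 2 to 4, when each body was cut into 10 bins of equal length from 5′ to 3′. An even spread would put 10% of peaks in each bin. Bin 10 held 13.8% of CTCF peaks (12.5 to 15.2), 14.1% of clone A2 DMSO RAD21 peaks (12.4 to 15.9) and 13.9% of those of clone D7 (12.1 to 15.9). Bin 1 held 12.1%, 11.97% and 12.3%. Bin 4 held 8.78%, 8.21% and 7.21%. PDS5A had 14.1% in bin 1, 5.51% in bin 4 and 16.3% in bin 10. STAG2 had 10.5% in bin 1 (8.81 to 12.6) and 15.5% in bin 10.

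**Figure D2:**
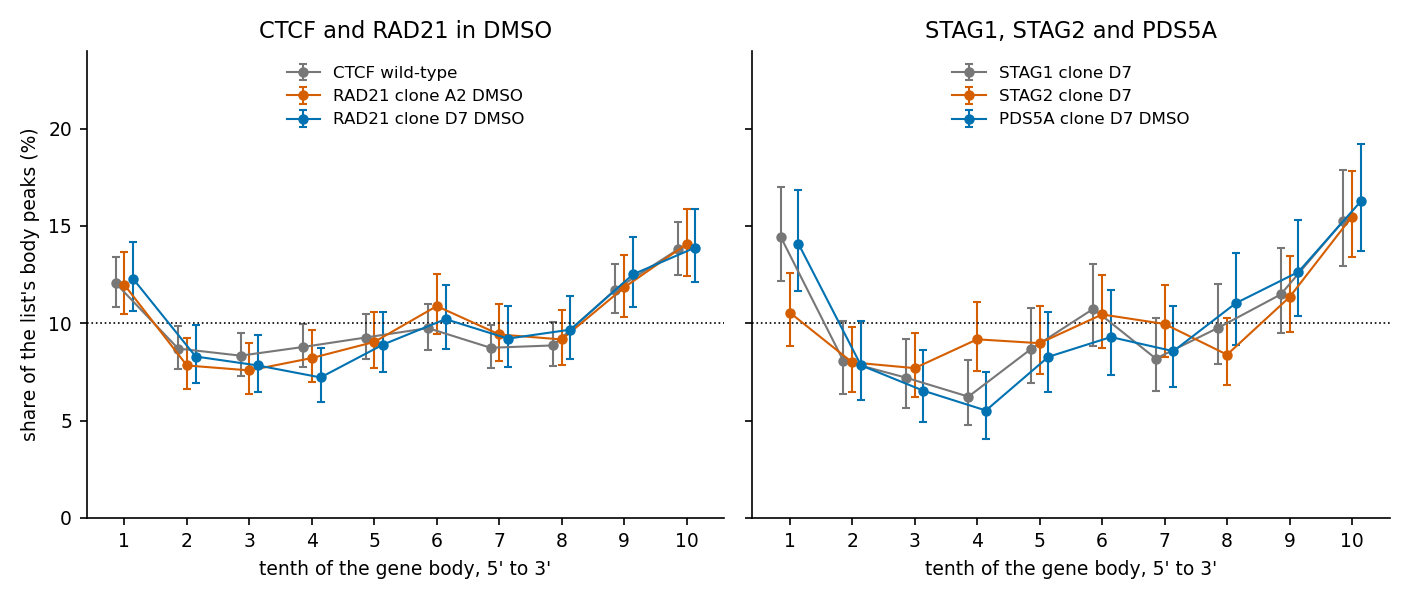
Share of each list's body peaks in each of 10 bins of the gene body, from 5′ to 3′ (34 members without a strand run from their lower coordinate), with 95% Wilson intervals and a dotted line at the even share of 10%. The left panel shows CTCF and RAD21 in DMSO, and the right panel STAG1, STAG2 and PDS5A; bin 10 is the highest point of each curve.

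Next to the start, within a few kilobases, peaks were dense. Within 5 kb of the 5′ end of the 166 members with a strand lay 43 RAD21 peaks of clone A2 and 41 of clone D7 in DMSO, or 51.8 and 49.4 per Mb. Within 5 kb of the 3′ end lay 10 and 7. CTCF had 50 peaks at 5′ ends and 9 at 3′ ends. At 5′ ends lay 37 of 706 STAG1 peaks (5.24%), 31 of 586 PDS5A peaks (5.29%) and 11 of 878 STAG2 peaks (1.25%). The windows made up 0.514% of the length. WAPL had none there, but with 68 peaks its list was too small to tell a lack from an even spread. Without 5 kb at either end, bin 1 of the shortened bodies held 9.17% of the clone A2 DMSO peaks and 9.08% of those of clone D7, while bin 10 held 14.6% and 14.7%.

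RAD21 at the 5′ ends gave different values in the 2 clones, a difference that was not tested. Promoters of all protein-coding genes, given below, also differed between the clones after dTAGV-1. In clone A2 14 of the 43 DMSO peaks (32.6%, 20.5 to 47.5) were overlapped by a peak at 4 h, as were 17 (39.5%) at 24 h. Clone D7 kept more: 33 of 41 (80.5%, 66.0 to 89.8) were overlapped at 4 h and 25 (61.0%) at 24 h. Farther than 5 kb from both ends the shares were 68.8% and 61.8% in A2 and 74.2% and 71.6% in D7. In DMSO, 27 of the 43 and 27 of the 41 overlapped CTCF (62.8% and 65.9%), less than over the bodies as a whole.

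Of 401 promoters of the 166 members, 102 (in 65 genes) had a DMSO RAD21 peak of either clone. Those with a peak held a median of 25.5 CG dinucleotides and 65.7% GC, and those without one 8 and 52.7%. A STAG2 peak lay on 5.99% of member promoters, a STAG1 peak on 23.4% and a PDS5A peak on 18.0%. Over all promoters of protein-coding genes these shares were 3.23%, 23.03% and 30.2%. For RAD21 in DMSO they were 22.7% of member promoters in A2 and 23.7% in D7, against 22.1% and 26.25% over all promoters of protein-coding genes. At 4 h and 24 h in A2 they were 4.99% and 13.2% of member promoters, against 4.61% and 8.92% over all. In D7 they were 26.4% and 16.2%, against 28.2% and 13.3%.

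Most cohesin peaks in the bodies lay on CTCF sites, in proportions close to those elsewhere for RAD21 when all CTCF peaks were counted. A peak overlapped CTCF when it shared at least 1 bp with a wild-type CTCF peak. In DMSO 86.3% of clone A2 RAD21 peaks inside did so (1345 of 1559), against 85.7% over chromosomes 1 to 22, and 83.5% of clone D7 peaks (1080 of 1294), against 82.8%. The differences from the rest were 0.626 points (-1.21 to 2.29) and 0.652 points (-1.51 to 2.62), and both intervals held 0. At 4 h the share was 97.5% in clone A2 (1117 of 1146), against 97.8% over the chromosomes, and 79.8% in clone D7 (1006 of 1261), against 78.0%. At 24 h it was 89.4% in clone A2 (1010 of 1130) and 92.3% in clone D7 (1094 of 1185), against 90.6% over the chromosomes in each. For clone D7 at 24 h the difference from the rest was 1.82 points (0.130 to 3.25), an interval above 0.

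For STAG2 the share was lower inside. Of its peaks there, 79.1% (796 of 1007) overlapped CTCF, against 85.1% over the chromosomes, and the difference from the rest was -6.39 points (-9.05 to -3.94). With a −log10 q of at least 10 in every list the difference was -1.37 points (-3.29 to 0.161), an interval that held 0. STAG1 had 88.5% inside (717 of 810) against 87.6%, PDS5A 73.1% (499 of 683) against 74.9%, and WAPL 98.7% (76 of 77) against 99.2%. For HA 4 of 9 peaks inside overlapped CTCF, against 64.8% over the chromosomes.

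The 2 STAG proteins were unequally represented in the bodies. STAG2 had 1.24 peaks for each STAG1 peak inside (1.13 to 1.37), and 0.822 in the rest (0.807 to 0.838). Among CTCF-free peaks the ratio was 2.27 inside (211 against 93 peaks, 1.77 to 2.93) and 0.962 in the rest. This ratio was not recomputed for stronger peaks. With a −log10 q of at least 10 the STAG2 difference in CTCF overlap was -1.37 points (-3.29 to 0.161). Of STAG2 peaks inside, 53.4% overlapped STAG1 and 73.1% overlapped clone D7 DMSO RAD21, against 70.4% and 84.4% in the rest. For STAG1, 66.5% inside overlapped STAG2, against 57.6% in the rest, and 94.4% overlapped RAD21. Background pileup was 1.77 for STAG1 and 3.14 for STAG2, and the ratio of local background inside to that in the rest was 0.563 and 0.787, so depth and local background moved with this difference; their part in it was not tested.

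Seen from the 2453 CTCF sites in the bodies, occupancy by cohesin was lower than elsewhere in some libraries and not in others. A RAD21 peak of clone A2 lay on 54.5% of them in DMSO, 45.0% at 4 h and 40.9% at 24 h, against 57.5%, 42.2% and 43.6% over chromosomes 1 to 22. In clone D7 the shares were 44.1%, 40.9% and 44.4%, against 53.0%, 51.7% and 46.0%. STAG1 lay on 29.1% of the sites, against 40.3% over the chromosomes, while STAG2 lay on 32.3% both inside and over the chromosomes. PDS5A lay on 20.4%, against 36.8%. Among the strongest CTCF peaks (the top of 4 equal groups by fold, 417 of them inside), PDS5A was present on 56.1% inside and 77.5% in the rest, a difference of -21.3 points (-26.2 to -16.6). STAG2 was present on 82.5% of these and on 75.3% in the rest. RAD21 in DMSO was present on 96.9% of these inside and 96.95% in the rest in A2, and on 90.7% and 95.1% in D7. CTCF peaks inside were weaker than in the rest (median fold 12.7 against 15.8). The part of this in the occupancy over all sites was not tested.

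After dTAGV-1, the share of DMSO RAD21 peaks retained in the bodies differed from the rest by a few points, with opposite signs in the 2 clones at each time. A DMSO peak counted as retained when any peak from that clone's treated list overlapped it. In clone A2 1069 of 1559 peaks (68.6%) were retained at 4 h, where 62.0% were over chromosomes 1 to 22, and the difference from the rest was 6.90 points (4.50 to 9.21). At 24 h 956 (61.3%) were retained, where 63.9% were over the chromosomes, and the bodies differed from the rest by -2.66 points (-5.15 to -0.226). In clone D7 981 of 1294 (75.8%) were retained at 4 h, where 79.9% were over the chromosomes, a difference of -4.28 points (-6.72 to -1.99). At 24 h 929 (71.8%) were retained, where 68.7% were over the chromosomes, a difference of 3.23 points (0.674 to 5.67).

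The choice of comparison decided one sign. Against the bodies of the other protein-coding genes the differences were 14.5 points (clone A2, 4 h), 3.97 (clone A2, 24 h), -0.501 (clone D7, 4 h) and 7.90 (clone D7, 24 h), so that of clone A2 at 24 h turned. For clone D7 at 4 h the share in the other gene bodies (76.3%) lay in the interval of the long bodies (73.4 to 78.1). Local background inside relative to the rest fell from 0.949 in DMSO to 0.571 at 24 h in clone A2 and rose from 0.774 to 0.997 in clone D7; its part in the retention differences was not tested.

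**Figure D3:**
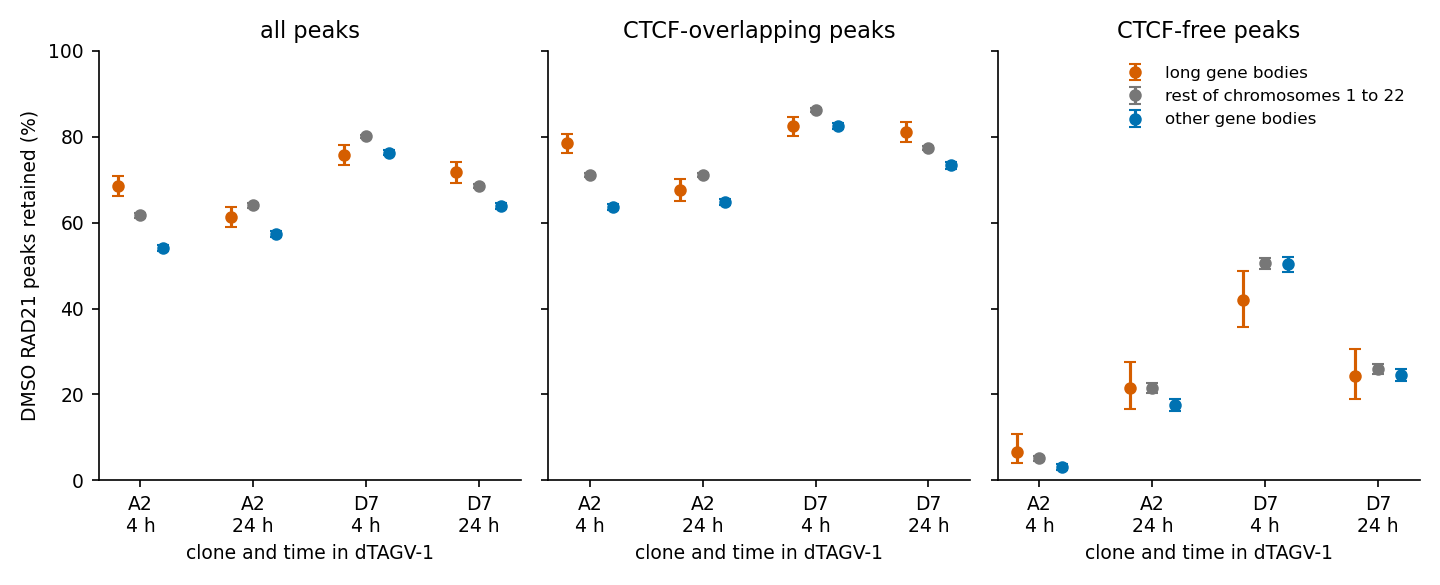
Share of DMSO RAD21 peaks that met a treated peak in the same clone, in the long gene bodies (orange), the rest of chromosomes 1 to 22 (grey) and the bodies of other genes (blue), with 95% Wilson intervals, for all peaks and by overlap with CTCF. At 4 h the orange point for all peaks lies above the grey in clone A2 (68.6% against 61.7%) and below it in clone D7 (75.8% against 80.1%).

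Before matching on fold, CTCF overlap separated retained from lost peaks far more than location did. Inside the bodies, 1055 of 1345 CTCF-overlapping peaks of clone A2 (78.4%) were retained at 4 h and 910 (67.7%) at 24 h, where 71.4% and 71.0% were over the chromosomes. Of the 214 CTCF-free peaks 14 (6.54%) were retained at 4 h and 46 (21.5%) at 24 h, where 5.20% and 21.5% were over the chromosomes. In clone D7 891 of 1080 CTCF-overlapping peaks (82.5%) were retained at 4 h and 877 (81.2%) at 24 h, where 86.1% and 77.6% were over the chromosomes. Of its CTCF-free peaks, by coincidence also 214, 90 (42.1%) were retained at 4 h and 52 (24.3%) at 24 h, where 50.3% and 25.8% were over the chromosomes.

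The difference between the classes inside the bodies was 71.9 points at 4 h and 46.2 at 24 h in A2, and 40.4 and 56.9 in D7. With the classes matched on deciles of the DMSO fold the differences were smaller, at 18.0, 11.2, 10.2 and 26.1 points, in the same order. Matched on these deciles, the bodies differed from the rest by 6.31, -2.925, -4.02 and 3.84 points.

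Retention mostly rose with the fold of the DMSO peak, and the long bodies departed from the rest at different strengths in each library. When DMSO peaks of clone A2 were split into 10 deciles by fold over the chromosomes, those of middling fold were retained more often inside at 4 h, with 78.3% against 65.1% in decile 5 and 93.3% against 83.7% in decile 6. At 24 h the strong peaks inside were retained less often, with 78.8% against 90.7% in decile 8 (-11.9 points, -18.7 to -6.31) and 89.2% against 94.3% in decile 9. In clone D7 the shortfall at 4 h lay in weak peaks, with 36.5% against 52.5% in decile 2, and in deciles 8, 9 and 10 all 133, 116 and 92 peaks inside were retained. At 24 h the difference was widest in decile 4, with 64.5% against 52.1%.

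**Figure D4:**
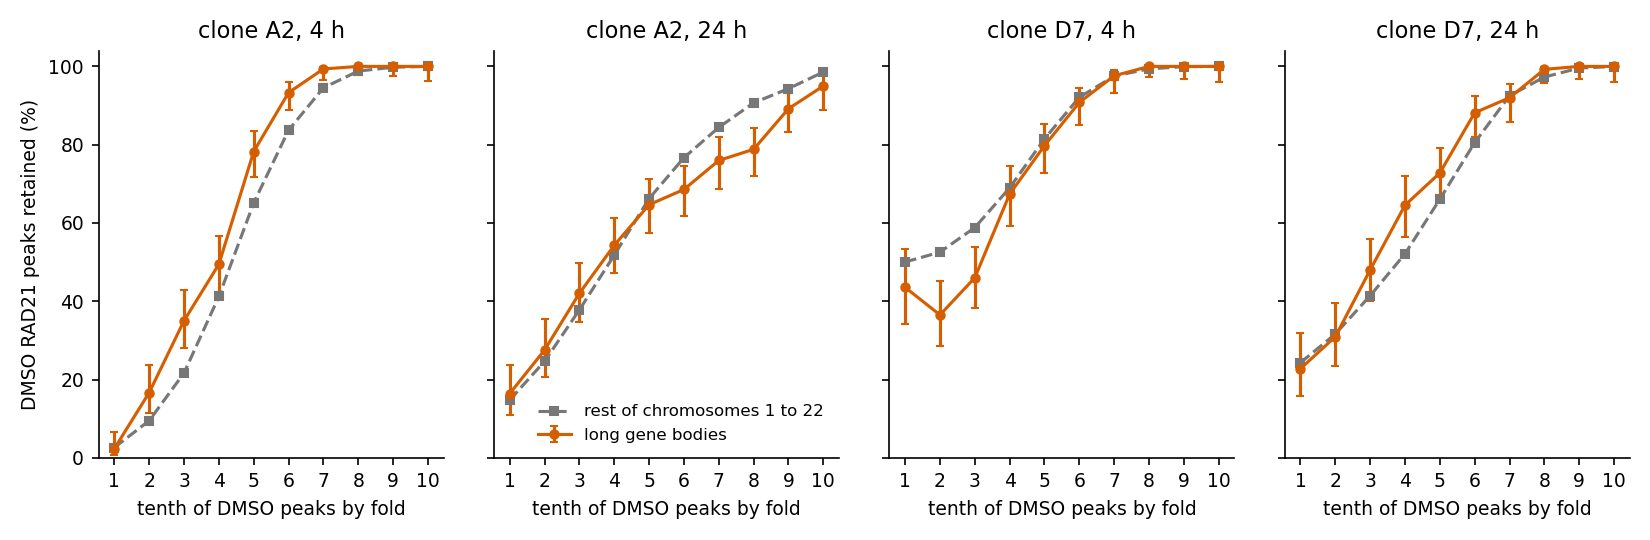
Share of DMSO RAD21 peaks retained in the long gene bodies (orange, 95% Wilson intervals) and in the rest of chromosomes 1 to 22 (grey squares), by decile of the clone's DMSO peaks ordered by fold. In clone A2 at 24 h the orange line drops below the grey from decile 5 on (78.8% against 90.7% in decile 8), whereas at 4 h it lies above the grey in deciles 2 to 8.

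The strong peaks lost in clone A2 at 24 h were present in other libraries. Inside the bodies 155 clone A2 DMSO peaks of the upper 50% by fold had no peak at 24 h. Of these, 150 (96.8%) had one at 4 h in clone A2, 143 (92.3%) at 24 h in clone D7 and 127 (81.9%) in STAG2. By contrast 67 (43.2%) had one in clone D7 in DMSO, 36 (23.2%) in clone D7 at 4 h, 14 (9.03%) in STAG1 and 6 (3.87%) in PDS5A. So these sites, most of which held RAD21 at 4 h in A2 and at 24 h in D7, were thinly represented in the DMSO and 4 h lists of D7, in STAG1 and in PDS5A. The split crosses clones, treatments and proteins. Among the 2054 such peaks in the rest the shares ran the same way, from 83.6% in clone A2 at 4 h to 37.5% in clone D7 at 4 h and 21.2% in PDS5A. Over all CTCF-overlapping clone A2 DMSO peaks lost at 24 h, strong or weak, the split was smaller inside and differed in the rest. Inside (435 peaks) 61.1% had a peak at 4 h in clone A2, 53.8% at 24 h in clone D7, 37.7% in clone D7 in DMSO, 42.5% in STAG2 and 12.4% in STAG1. In the rest (9176 peaks) more had one in clone D7 in DMSO (58.0%) than at 24 h (39.4%), and more in STAG1 (32.8%) than in STAG2 (25.8%). Of the 910 CTCF-overlapping peaks inside retained at 24 h, 92.0% had one in clone D7 in DMSO, 70.1% in STAG1, 64.6% in STAG2 and 45.6% in PDS5A. A peak at 4 h in clone A2 did not set the strong lost peaks apart. Among all clone A2 DMSO peaks inside, 93.3% in decile 6 by fold had one, 99.35% in decile 7 and 100% in deciles 8 to 10.

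Peaks present after dTAGV-1 and absent from DMSO were also unevenly spread over the libraries. Inside the bodies they made up 6.20% of clone A2 peaks at 4 h (71 of 1146), where 3.55% did over chromosomes 1 to 22, and 15.3% at 24 h (173 of 1130), where 10.8% did. In clone D7 they made up 21.9% at 4 h (276 of 1261), where 22.7% did, and 21.1% at 24 h (250 of 1185), where 13.4% did. Of the 250 in clone D7 at 24 h, 212 (84.8%) overlapped CTCF and 170 (68.0%) overlapped a clone A2 peak in DMSO, while 6 (2.40%) overlapped STAG1. Among the 3680 such peaks in the rest these shares were 73.0%, 57.8% and 7.42%, so most of these clone D7 24 h peaks lay on CTCF sites in both places. In clone D7 at 4 h the CTCF share of such peaks was 40.9% inside and 40.5% in the rest. In clone A2 it was 80.3% and 74.6% at 4 h, and 59.5% and 54.1% at 24 h. Inside, their median fold was 3.96 to 6.64 over the 4 lists, against 10.3 to 12.7 for treated peaks also present in DMSO.

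The clones also differed before treatment. Of clone A2 DMSO peaks inside, 71.3% overlapped a clone D7 DMSO peak, against 81.0% in the rest, while 84.9% of clone D7 peaks inside overlapped clone A2, against 84.4%. Restricting the view to the 1098 clone D7 DMSO peaks inside that were shared with clone A2, 678 (61.7%) had a peak in all 4 dTAGV-1 lists and 54 (4.92%) in none. In the rest these shares were 59.4% and 6.45%. Of the 106 shared peaks that were CTCF-free, 3 were in all 4 lists and 33 in none.

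By position, clone D7 peaks in bins 1 and 10 were retained at 4 h more often (81.9% of 160 and 82.9% of 181) than those in the middle 8 bins (73.6% of 962). In clone A2 at 4 h the shares in bin 1, bin 10 and the middle were 66.5% of 188, 73.3% of 221 and 67.8% of 1162. At 24 h they were 58.0%, 64.3% and 61.4% in A2 and 71.2%, 77.3% and 71.0% in D7. Bin 10 had the highest share in each of the 4 comparisons, but its interval overlapped that of the middle in 3 of them, the exception being clone D7 at 4 h (76.7 to 87.7 against 70.7 to 76.3).

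Member genes varied widely. In clone A2 128 members held fewer RAD21 peaks at 4 h than in DMSO and 14 held more, and at 24 h 140 held fewer and 16 more. In clone D7 69 held fewer and 69 more at 4 h, and 89 fewer and 55 more at 24 h. The lists changed in size outside the bodies too. Treated peaks per DMSO peak in A2 were 0.735 inside and 0.642 in the rest at 4 h, and 0.725 and 0.718 at 24 h. In D7 these ratios were 0.974 and 1.04 at 4 h, and 0.916 and 0.796 at 24 h. Of the 200, 122 had at least 5 DMSO RAD21 peaks in each clone, the number set for a share per gene. The share retained at 24 h ran from 10.0% to 100% in clone A2 with a median of 64.3%, and from 14.3% to 100% in clone D7 with a median of 75.0%. At 4 h the medians were 71.4% and 79.6%. The clones ranked the genes with little accord (Pearson r = 0.383 and Spearman correlation 0.306 at 4 h, 0.312 and 0.270 at 24 h, across 122 genes). At 24 h 80 of the 122 had a lower share in clone A2 than in clone D7, 34 a higher one and 8 an equal one. Over chromosomes 1 to 22 the share at 24 h was also lower in A2 (63.9%) than in D7 (68.7%). With so few peaks per gene, shares move by many points when 1 peak changes.

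Among the genes with the highest mean share at 24 h were RGS6 (a regulator of G-protein signalling), KALRN (a guanine nucleotide exchange factor), KCNIP4 (a potassium channel interacting protein) and TRPM3 (a cation channel). RGS6 retained 7 of 7 DMSO peaks in A2 and 5 of 5 in D7, and KALRN 9 of 10 and 8 of 8. In these 4 genes 1 DMSO peak, in TRPM3 in clone A2, was free of CTCF.

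The lowest were LRBA (a protein of vesicle trafficking), FOXP1 (a forkhead transcription factor), CDKAL1 (a tRNA-modifying enzyme), ULK4 (a pseudokinase) and NAALADL2. LRBA (chr4:150264435-151015727) retained 1 of 10 in A2 and 1 of 7 in D7 at 24 h, and FOXP1 (chr3:70954708-71583978) 3 of 11 and 2 of 10. CTCF-free DMSO peaks numbered 4 of 10 in A2 and 4 of 7 in D7 in LRBA, and 6 of 11 and 6 of 10 in FOXP1. In CDKAL1 they were 3 of 9 and 4 of 7, in ULK4 3 of 9 and 3 of 7, and in NAALADL2 1 of 6 and 2 of 5. Peaks on CTCF sites were lost too. At chr4:150297615-150298710 in LRBA the clone A2 fold was 34.4 in DMSO and 40.3 at 4 h, with no peak at 24 h. Clone D7 had no peak there in DMSO or at 4 h, and 31.8 at 24 h. Near the middle of LRBA, 3 adjacent CTCF-free peaks, from chr4:150579625-150580081 to chr4:150583161-150584145, had folds of 4.44 to 5.45 in clone A2 in DMSO and 2.80 to 4.54 in clone D7, and no peak in any dTAGV-1 list.

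The largest differences between the clones at 4 h were in DAB1 (an adaptor of reelin signalling), SLIT3 (a guidance ligand) and CDH4 (a cadherin). DAB1 retained 4 of 12 in A2 and 8 of 10 in D7, SLIT3 5 of 14 and 9 of 11, and CDH4 3 of 8 and 5 of 6. At 24 h the pairs were 7 of 12 and 6 of 10, 10 of 14 and 9 of 11, and 3 of 8 and 3 of 6.

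At 24 h the widest gaps, chosen after their values were seen, were in NAV3 (a microtubule-binding navigator protein), CCSER1, FOXP2 (a forkhead transcription factor) and EYS (a photoreceptor matrix protein). NAV3 (chr12:77571862-78213010) had 9 DMSO peaks in clone A2, of which 9 were retained at 4 h and 2 at 24 h, and 8 in clone D7, of which 5 were retained at 4 h and 8 at 24 h. In EYS the counts were 15, 12 and 5 in A2 and 6, 5 and 6 in D7. In the opposite direction LPP, a focal adhesion protein, retained 5 of 15 at 4 h and 11 at 24 h in clone A2, against 3 and 5 of 17 in clone D7.

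The peaks of NAV3 show the pattern site by site. At chr12:77724072-77724937 RAD21 had a fold of 34.1 in clone A2 in DMSO and 47.1 at 4 h, and no peak at 24 h. In clone D7 the fold there was 8.75 in DMSO, with no peak at 4 h, and 42.3 at 24 h; STAG2 had 29.5 and STAG1 no peak. At chr12:77925322-77926338 every list except HA held a peak, and the RAD21 folds ran 51.8, 57.5 and 80.0 in A2 and 74.1, 57.8 and 43.0 in D7. All 9 clone A2 DMSO peaks in NAV3 overlapped CTCF and STAG2, and 2 overlapped STAG1.

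**Figure D5:**
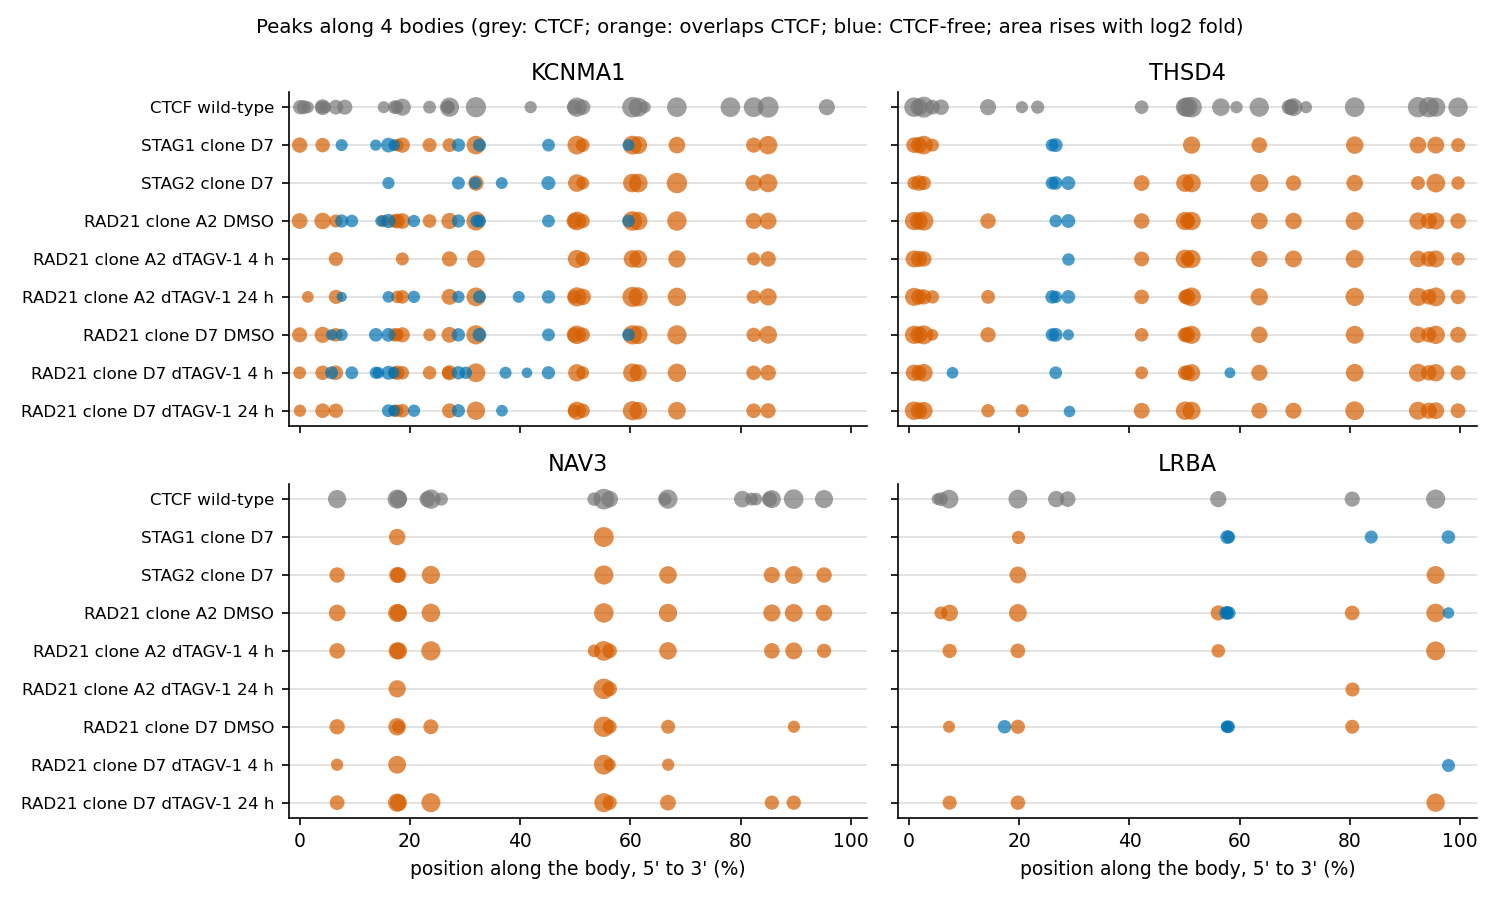
Peaks along KCNMA1, THSD4, NAV3 and LRBA from 5′ to 3′ (0% to 100% of the body), 1 row per list; grey dots are CTCF peaks, orange dots overlap CTCF, blue dots are CTCF-free, and dot area rises with log2 fold. Over DMSO, 4 h and 24 h NAV3 has 9, 11 and 3 dots for A2 and 8, 5 and 9 for D7; in DMSO 10 (A2) and 8 (D7) dots of KCNMA1 are blue, and 2 and 3 of THSD4.

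The share of peaks retained in each function list had an interval that overlapped that of the whole. Over all 200 members (counting a peak once per gene) 68.4% and 61.4% were retained in clone A2 at 4 h and 24 h, and 75.9% and 71.9% in clone D7. The signalling and guidance genes had 74.8% and 65.7% in A2 and 82.6% and 79.8% in D7. The 16 channels and receptors departed most at 4 h in D7, with 86.3%, and had 64.0% and 68.4% in A2 and 74.7% in D7 at 24 h. The transcription and RNA regulators had 61.9%, 61.4%, 69.7% and 64.9%. CTCF overlap in DMSO was 92.3% and 92.2% (clones A2 and D7) in the signalling and guidance genes and 75.7% and 69.7% in the transcription and RNA regulators. The fragile-site genes had 70.0%, 59.7%, 79.5% and 71.6%, close to the whole. This held in all 4 comparisons, and the whole includes the lists. The narrowest overlaps were in clone D7, for channels and receptors at 4 h (77.98 to 91.8 against 73.5 to 78.15) and signalling and guidance at 24 h (74.0 to 84.6 against 69.4 to 74.3).

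Single sites illustrate each fate. The strongest clone D7 DMSO peaks inside that were also in clone A2 and in all 6 RAD21 lists lay in GPC6 (a glypican), NALF1 (a subunit of the NALCN sodium channel complex) and TTC28. At GPC6 (chr13:93248258-93250164, 2.70% along the body) the RAD21 fold was 98.9, 23.8 and 45.8 in A2 and 125, 57.9 and 63.3 in D7, with CTCF at 74.6, STAG1 at 129 and PDS5A at 112. An HA peak (7.61) and a WAPL peak (6.25) lay there too. At each of these 3 sites the fold was lower in dTAGV-1 than in DMSO within the clone, though folds are relative to each library's own background. The sites were chosen for the highest clone D7 DMSO folds, a choice that by itself favours lower folds in the treated lists of D7.

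The strongest that were in both DMSO lists and no dTAGV-1 list lay in PARD3 (a polarity protein), ADAMTSL1 (a matrix protein) and AGAP1 (an Arf GTPase activator). At PARD3 (chr10:34391093-34391648) the fold was 11.5 in A2 and 11 in D7, and CTCF had 17.1. These 3 sites overlapped CTCF with folds of 17.1 to 25.1, and none had a STAG2 peak. The strongest CTCF-free sites in both DMSO lists lay in CDKAL1, NALF1 and CDH18 (a cadherin). At CDKAL1 (chr6:21022210-21022920) the fold was 6.995 in clone A2 in DMSO and 6.27 at 24 h with no peak at 4 h, and 15.3 in clone D7 in DMSO with no peak at either time. None of the 3 had a peak at 4 h in clone A2, and all 3 had one at 24 h.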

How the data were processed

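Per the submitters' processing notes, BWA, Picard, SAMtools, bedtools, deepTools and MACS2 and the builds hg38 and mm10 were used, with no role, version or order given. The files are narrowPeak lists without a header, called per library against 1 control, per the peak names, which carry a q of 0.001 for CTCF and 0.01 for the other lists. The authors deposited for each peak a fold enrichment of the summit (a ratio to local background), a −log10 p, a −log10 q and a score; the score was not used, and no spike-in factor was applied. The 10 inputs were not analysed here.

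Peaks on chromosomes 1 to 22 were placed by summit in RefSeq GRCh38.p14 bodies and compared by overlap of at least 1 bp with Python 3.11.15, numpy 2.4.6, pandas 2.3.3 and scipy 1.17.1, and functions were checked on simulated data. Shares carry 95% Wilson intervals, their differences Newcombe intervals and density ratios exact intervals for 2 counts. Strand came from the RefSeq promoter table. Pileups were recovered for peaks with a −log10 p under 250, within 0.01 of that value, under a Poisson model: 100% of such peaks in 11 lists, and 6 of 210 in HA.

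Genes named are the 5 longest, the 5 with most and the 5 with fewest DMSO RAD21 peaks per Mb, the 5 highest and 5 lowest by mean share retained at 24 h and the 3 with the largest clone difference at 4 h (at least 5 DMSO peaks in each clone), and 3 sites of each fate by clone D7 fold; 2 of these genes are not reported here. Promoters on chromosome 8 were not shown. Alternatives were a −log10 q of at least 10, RAD21 lists of equal length, summits within 200 bp, the 100 longest genes, bodies without 5 kb at either end, other gene bodies as comparison, matching on fold, the upper 50% of CTCF peaks and leaving out the 10 members with most peaks. Equal background pileup and members with a strand only were chosen after seeing the data. The members, lists and rules were chosen with earlier results of these data known.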

Additional observations from a re-analysis of the deposited data

Results flagged for a closer look

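The 2 clones moved in opposite directions in several comparisons within the long gene bodies, each with 1 library per clone and condition; the differences between the clones were not tested. For the share of DMSO RAD21 peaks retained, the bodies minus the rest of chromosomes 1 to 22 gave 6.90 points in A2 and -4.28 in D7 at 4 h, and -2.66 and 3.23 points at 24 h. For CTCF-overlapping peaks the values were 7.29 and -3.72 points at 4 h, and -3.45 and 3.79 points at 24 h. For CTCF-free peaks they were 1.40 (-1.29 to 5.57, which holds 0) and -8.50 points at 4 h, and 0.0413 and -1.60 points at 24 h, where both intervals held 0 (-5.06 to 6.12 and -6.98 to 4.66). These signs are against the rest of chromosomes 1 to 22. Compared with the bodies of other protein-coding genes, peaks inside were retained more often in both clones at 24 h. The shares were 61.3% against 57.35% in A2 and 71.8% against 63.9% in D7. At 4 h they were 68.6% against 54.0% in A2. In D7 they were 75.8% (73.4 to 78.1) against 76.3%, which lies in that interval. The share of RAD21 peaks in the bodies that overlapped CTCF changed from DMSO to 4 h by 11.2 points in A2 (from 86.3% to 97.5%) and by -3.68 points in D7 (from 83.5% to 79.8%). Over all of chromosomes 1 to 22 this share went from 85.7% to 97.8% in A2 and from 82.8% to 78.0% in D7. The change was thus not particular to the bodies.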

How the results depend on the processing

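No paired analysis was possible because each group has 1 library and no test was made. All 48 density ratios under the alternatives lay below 1 and all 32 differences between CTCF-overlapping and CTCF-free peaks lay above 0. The 4 retention differences between the bodies and the comparison regions kept their sign under every alternative except the use of other gene bodies, where 3 of 4 did. Where values moved or turned, the cause was not tested. For the 100 longest genes the density ratio was 0.511 for CTCF, 0.461 for A2 in DMSO and 0.391 for D7, bin 1 of 10 along the body held 10.4% of A2 peaks, and the 4 h retention difference was 10.7 points in A2 and -1.24 in D7. Against other gene bodies the density ratios were 0.478, 0.460 and 0.399, the CTCF overlap difference of D7 in DMSO was 2.71 points, and the retention differences were 14.5 and 3.97 points in A2 (the latter turned) and -0.501 and 7.90 in D7, at 4 h and 24 h. With a −log10 q of at least 10 the STAG2 overlap difference was -1.37 points and that of D7 at 24 h turned to -0.0254; retention differences were 3.74 and -7.04 points in A2 and -0.655 in D7 at 4 h, and the CTCF class difference was 66.1 points (A2, 4 h) and 66.5 (D7, 24 h). With RAD21 lists of equal length the retention differences were 3.66 and -7.44 points in A2 and -1.99 in D7 at 4 h, and the class differences 41.5 and 23.4 points in A2 and 63.7 in D7 at 24 h. Matched on fold, the STAG2 difference was -3.92 points and the class differences were 18.0 and 11.2 points in A2 and 10.2 and 26.1 in D7. With the upper 50% of CTCF peaks the overlap differences were -9.26 points for STAG2 and -1.98 (turned) for D7 at 24 h. For A2 they were -2.95 in DMSO, -8.71 at 4 h and -7.85 at 24 h. The class differences were then 53.1 and 32.0 points in A2 and 47.0 in D7 at 24 h. Without 5 kb at either end bin 1 held 9.17% and 9.08% of the DMSO peaks of clones A2 and D7. At equal background pileup, chosen after seeing the data, the class difference in D7 at 4 h was 47.9 points. Depth differed between libraries, so a peak missing from a list was not shown to be absent from the chromatin.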
